A study of Mus musculus with 24 samples.

Results

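Toll-like receptors (TLRs) are pattern-recognition receptors that bind molecules of microbes and pass the signal on to nuclear factor kappa B (NF-kB). The 10 genes described here are a chosen set that runs from the receptors to the inhibitors of NF-kB: Tlr2, Tlr4, Myd88, Nfkb1, Nfkb2, Rela, Relb, Nfkbia, Nfkbie and Tnfaip3. They were found by symbol, and all 10 were matched among the 55414 gene identifiers that each count file lists. The data are 24 RNA sequencing libraries of mouse bone marrow LSK cells, that is, cells without lineage markers that carry Sca-1 and Kit on their surface, a population that holds blood stem cells and multipotent progenitors. The cells were sorted from female and male pups on day 21 after birth. The mothers were C57BL/6J mice that ate either a Western diet, given to induce obesity, or regular chow as control, from before mating until the end of nursing. Sex and maternal diet make 4 groups of 6 libraries: females of Western-diet dams, females of control dams, males of Western-diet dams and males of control dams. No genotype differs between the groups. Each group has 2 libraries in each of 3 labelled batches; the labels do not say what a batch shared. The labels name no dams or litters, so p-values here speak only of library-to-library spread, which may be technical or include littermates.

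In resting cells, inhibitor proteins of the IkB family hold NF-kB dimers in the cytoplasm. When a ligand engages a TLR, adaptors such as MyD88 lead to kinase activation and IkB degradation, and the freed dimers enter the nucleus and switch on inflammatory genes together with the genes of their own inhibitors, Nfkbia and Tnfaip3 among them. Blood stem and progenitor cells are known to carry TLRs and to respond to their ligands with myeloid output. RNA levels of these genes are read here; phosphorylation, IkB protein and nuclear entry were not measured.

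Libraries held 38057263 to 51581968 counts in genes, and each of the 10 genes was counted in every library, with a lowest count of 74 for Relb and a highest of 37547 for Nfkbia. The LSK marker genes were all detected: Kit averaged 535.9 CPM (counts scaled to a common library size) and Cd34 591.5 CPM, while Ly6a, the Sca-1 gene, averaged 14.1 CPM. Markers of other cells were present as well, with no listed marker at 0 in all libraries. The 10 mature red cell markers summed to 1039 to 8998 CPM per library, the 15 macrophage and monocyte markers to 511.5 to 2089 CPM, and the 10 B and plasma cell markers to 378.6 to 2246 CPM. In such bulk samples fewer cells of a type and less RNA per cell cannot be told apart. On the first principal component, which held 17.5% of the variance, female control replicates 5 and 6 of batch 3 lay apart at -90.95 and -72.42, whereas the other 22 libraries lay between -29.35 and 41.85. Diet results for females are therefore also given without this pair where the pair matters, except for the cell markers.

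Nfkbia, which encodes IkB alpha, the best known NF-kB inhibitor, was by far the most abundant of the 10 per length of transcript. It averaged 248.5 ± 141.9 CPM per kilobase of exon (SD, n = 24), a level above that of 99% of 19480 genes. Rela, the gene of the transactivating p65 subunit, came next at 27.7 ± 3.86 CPM per kilobase, ahead of Myd88, the main TLR adaptor, at 21.7 ± 2.24. Tnfaip3, which encodes the ubiquitin-editing enzyme A20, averaged 13.7 ± 7.88 CPM per kilobase and Nfkb1, the gene of p105 and p50, 13.5 ± 1.25. Nfkbie, which encodes IkB epsilon, followed at 10.1 ± 2.84 and Nfkb2, the gene of p100 and p52, at 6.83 ± 2.68 CPM per kilobase. The lowest levels were those of Tlr2 at 3.95 ± 1.19, Relb at 2.34 ± 1.03 and Tlr4 at 1.75 ± 0.587 CPM per kilobase. Nfkbia stood above Rela in all 24 libraries with no overlap of their ranges, but every other pair of neighbours in this order overlapped, and Tnfaip3 was above Nfkb1 in 9 of 24 libraries. Exon lengths come from an annotation of an older mouse build than the counts. Myd88 shares 290 exon bases with other genes and Nfkb2 shares 830, in part with genes on the opposite strand, and the library kit does not mark strand, so reads in these stretches cannot be assigned with certainty.

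Maternal Western diet went with less Nfkbia RNA. In females Nfkbia fell 1.48-fold, and in the average over both sexes it fell 1.37-fold. No other gene of the 10 passed the test in any comparison of diets, although Rela and Nfkb2 were lower in every female Western-diet library than in both control libraries of its batch, an order that 2.92% of all genes tested showed. The receptors Tlr2 and Tlr4 and the adaptor Myd88 did not pass.

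Nfkbia (ENSMUSG00000021025, chromosome 12) measured 487.4 and 529.7 CPM in females of Western-diet dams in batch 1, against 925.2 and 801.2 CPM in control females of that batch. In batch 2 it measured 139.8 and 196.2 CPM in Western-diet females, against 275.9 and 267.9 CPM in control females. In batch 3 it measured 264.7 and 214.5 CPM in Western-diet females, against 241.4 and 324.4 CPM in control females. Within each batch the mean was lower with Western diet, and the diets overlapped in batch 3 alone. On the log2 scale the within-batch differences were -0.76, -0.71 and -0.23 in batches 1, 2 and 3. Over all batches the level was 305.4 ± 162.9 CPM in Western-diet females and 472.7 ± 306.2 CPM in control females (SD, n = 6 each), and these pooled ranges overlapped.

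Tested on all 19616 genes kept by the filter in a model with terms for group and batch, the female difference was -0.57 ± 0.114 (log2 fold change ± SE) with an adjusted p of 0.0041 in edgeR's quasi-likelihood test with Benjamini-Hochberg adjustment. A gene is called here when this adjusted p is under 0.05. Nfkbia was thus 1 of 10 genes called lower, where 3.22% of all genes tested were called lower, 2.20% higher and 5.42% in either direction. Without female control replicates 5 and 6 its difference was -0.70 with an adjusted p of 0.00389. Without batch 2 the call was lost (-0.52, adjusted p 0.0806), as it was with no term for batch (-0.63, adjusted p 0.472).

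In males of Western-diet dams Nfkbia measured 729.2 and 568.4 CPM in batch 1, against 777.2 and 685.6 CPM in control males. In batch 2 it measured 192.3 and 210.8 CPM in Western-diet males, against 304.7 and 261.3 CPM in control males. In batch 3 it measured 238.1 and 292.3 CPM in Western-diet males, against 347.4 and 326.5 CPM in control males. Here too the mean was lower with Western diet in 3 of 3 batches, and 5 of 6 Western-diet libraries lay below both control libraries of their batch, the same number as in females. An order with at least 5 of 6 below was shown by 7.22% of all genes in males and 7.82% in females. The male difference of -0.34 ± 0.114 had an unadjusted p of 0.00668 but an adjusted p of 0.373 in edgeR's quasi-likelihood test, in a comparison where 0.0102% of all genes were called. None of the 10 genes was called in males, by edgeR or by DESeq2, and Nfkbia was the 1 gene of the 10 with an unadjusted p under 0.05. Over all genes 1657 of 19616 had such a p in males, so 1 of 10 does not stand out. The diet effect on Nfkbia in males less that in females was 0.23 ± 0.161 (adjusted p 0.681, edgeR), and a difference between the sexes was not shown. Averaged over both sexes the difference was -0.45 ± 0.08 with an adjusted p of 0.0011 (edgeR), in a comparison that called 3.51% of all genes lower, 2.19% higher and 5.70% in either direction.

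**Figure D1:**
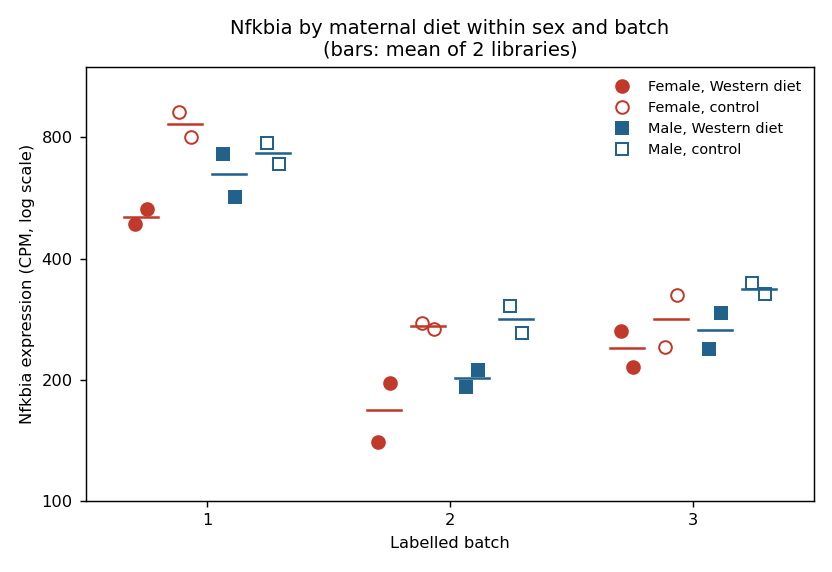
Nfkbia expression in CPM on a log axis for the 24 libraries, by labelled batch, with females of Western-diet dams (filled red), control females (open red), males of Western-diet dams (filled blue) and control males (open blue) from left to right; bars are means of 2 libraries. In every batch and sex the Western-diet mean lies under the control mean, and the 8 libraries of batch 1, from 487.4 to 925.2 CPM, lie above all others.

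The mature red cell markers moved with diet as well. They summed to a median of 2178 CPM in Western-diet females and 3732 CPM in control females, and to 2424 CPM in Western-diet males and 5545 CPM in control males. Of the 10 red cell markers tested, 7 were called lower in the average over both sexes and none higher. In that average 3.51% of all genes were called lower and 2.19% higher. In females alone edgeR called 4 of the 10 lower. Over all genes edgeR called 3.22% lower and 2.20% higher in females, and the female edgeR counts that follow stand beside these shares. Other cell markers differed in females too. The B and plasma cell markers summed to a median of 1131 CPM in Western-diet females and 747.5 CPM in control females, and 3 of 10 were called higher, Igkc by 1.64 and Cd79b by 0.50 on the log2 scale, and Jchain 2.83-fold. The T and NK cell markers summed to a median of 399.6 CPM in Western-diet females and 300.5 CPM in control females, with 1 of 12, Nkg7, called higher by 0.80, and 1 of 10 dendritic markers, Zbtb46, fell by 1.07. Of 11 LSK markers edgeR called 2 higher in females, Mecom by 0.55 and Meis1 by 0.52. DESeq2 called 5 higher, where it called 835 of 19616 genes higher and 970 lower. The macrophage and monocyte markers summed to a median of 1173 CPM in Western-diet females against 732.9 CPM in control females, and to 801.5 CPM in Western-diet males against 834.3 CPM in control males. None of these 15 was called for diet by edgeR in either sex, where 1 had an unadjusted p under 0.05 in females, and DESeq2 called 1 higher in females, Ccr2, named after its values were seen, at 52.2 ± 14.9 CPM in Western-diet females against 31.04 ± 9.74 CPM in control females. The lowest LSK (1206 CPM), B and plasma cell (378.6 CPM) and T and NK cell (151 CPM) sums of the 24 libraries lay in control females of batch 3. Those are the pair that stands apart. The lowest red cell, dendritic and macrophage sums lay in Western-diet females. The female marker calls are not given here without that pair, so how far they rest on it is not shown. The part of these markers in the Nfkbia result was not tested.

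Of the receptors, Tlr2, which recognises bacterial lipopeptides, measured 7.39 to 17.6 CPM (median 12.6) in Western-diet females and 4.76 to 15.7 CPM (median 10.4) in control females. Its difference of 0.32 ± 0.199 did not pass (adjusted p 0.377, edgeR). That value rested on batch 3, where Tlr2 measured 12.9 and 14.2 CPM in Western-diet females, against 4.76 and 7.04 CPM in the control pair that stands apart; without that pair it was 0.06. In males Tlr2 averaged 12.3 ± 1.75 CPM with Western diet and 12.6 ± 4.74 CPM in control pups (SD, n = 6 each), a difference of 0.04 ± 0.197. Tlr4, the receptor for bacterial lipopolysaccharide, averaged 10.8 ± 3.79 CPM in Western-diet females and 9.21 ± 3.85 CPM in control females. In males Tlr4 averaged 9.47 ± 2.87 CPM with Western diet and 9.38 ± 3.10 CPM in control pups. Neither Tlr4 difference passed, at 0.28 ± 0.223 in females and 0.03 ± 0.223 in males.

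Myd88 hardly varied. It averaged 59.98 ± 6.83 CPM in Western-diet females and 56.7 ± 5.46 CPM in control females, and 53.0 ± 1.87 CPM in Western-diet males and 54.2 ± 6.25 CPM in control males (SD, n = 6 each). Its diet differences were 0.08 ± 0.081 in females and -0.02 ± 0.081 in males.

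Among the subunits, Nfkb1 measured 144.4 to 190.1 CPM (median 169.3) in Western-diet females and 142.2 to 168.6 CPM (median 149.0) in control females. In males it measured 160.9 to 190.1 CPM (median 166.9) with Western diet and 146.4 to 171.7 CPM (median 156.7) in control pups. Its differences were small and positive in both sexes, 0.15 ± 0.078 in females and 0.13 ± 0.078 in males, and neither passed (adjusted p 0.275 and 0.689, edgeR).

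Rela measured 92.3 and 92.2 CPM in Western-diet females of batch 1, against 100.2 and 102.4 CPM in control females. In batch 2 it measured 59.5 and 67.6 CPM in Western-diet females, against 90.7 and 80.4 CPM in control females, and in batch 3 60.5 and 81.7 CPM in Western-diet females, against 92.8 and 88.8 CPM in control females. All 6 Western-diet libraries thus lay below both control libraries of their batch, as for 2.92% of all genes, with within-batch log2 differences of -0.13, -0.43 and -0.37. The fitted difference of -0.30 ± 0.094 missed the threshold with an adjusted p of 0.0602 in edgeR. It passed in DESeq2 (-0.32, adjusted p 0.0201), without batch 1 (-0.43, adjusted p 0.0272) and when 1 of 3 single libraries was left out: Western-diet female replicate 1 (-0.37, adjusted p 0.0328), Western-diet female replicate 2 (-0.37, adjusted p 0.0328) or control male replicate 1 (-0.30, adjusted p 0.0284). Without control female replicates 5 and 6 it was -0.31 with an adjusted p of 0.281. In males Rela averaged 87.5 ± 9.95 CPM with Western diet and 84.5 ± 8.48 CPM in control pups, a difference of 0.04 ± 0.094.

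Nfkb2 measured 45.6 and 44.8 CPM in Western-diet females of batch 1, against 60.4 and 47.1 CPM in control females. In batch 2 it measured 22.6 and 23.3 CPM in Western-diet females, against 26.7 and 24.9 CPM in control females, and in batch 3 11.4 and 12.6 CPM in Western-diet females, against 30.9 and 27.8 CPM in control females. Every Western-diet library again lay below both control libraries of its batch. The log2 differences were -0.24, -0.17 and -1.28 in batches 1, 2 and 3, so most of the difference lay in batch 3. The fitted value of -0.51 ± 0.24 was not called (adjusted p 0.222, edgeR). It was called without batch 1 (-0.73, adjusted p 0.0368) and with no filter on low counts (-0.52, adjusted p 0.0231). In the other 32 of 34 alternatives it was not called, and over all 34 it ran from -0.73 to -0.21. In males Nfkb2 averaged 34.1 ± 8.72 CPM with Western diet and 28.03 ± 10.5 CPM in control pups, a difference of 0.23 ± 0.238.

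Relb, whose protein pairs with p52 in the non-canonical pathway, averaged 8.34 ± 5.26 CPM in Western-diet females and 9.92 ± 4.61 CPM in control females. Its difference of -0.33 ± 0.239 was not called, and it rested on batch 3, where Relb measured 4.20 and 1.77 CPM in Western-diet females, against 7.99 and 6.83 CPM in control females; without batch 3 it was 0.05. In males Relb averaged 9.95 ± 3.49 CPM with Western diet and 8.16 ± 3.04 CPM in control pups.

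The remaining inhibitors did not share the direction of Nfkbia in both sexes. Nfkbie averaged 27.9 ± 11.6 CPM in Western-diet females and 29.1 ± 9.06 CPM in control females, and 35.5 ± 7.71 CPM in Western-diet males and 30.2 ± 5.17 CPM in control males. Its differences were -0.06 ± 0.146 in females and 0.22 ± 0.146 in males. Tnfaip3 averaged 85.3 ± 53.8 CPM in Western-diet females and 97.1 ± 57.1 CPM in control females, and 113.6 ± 74.9 CPM in Western-diet males and 100.8 ± 51.6 CPM in control males. Its differences were -0.21 ± 0.18 in females and 0.07 ± 0.18 in males, none of them called.

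**Figure D2:**
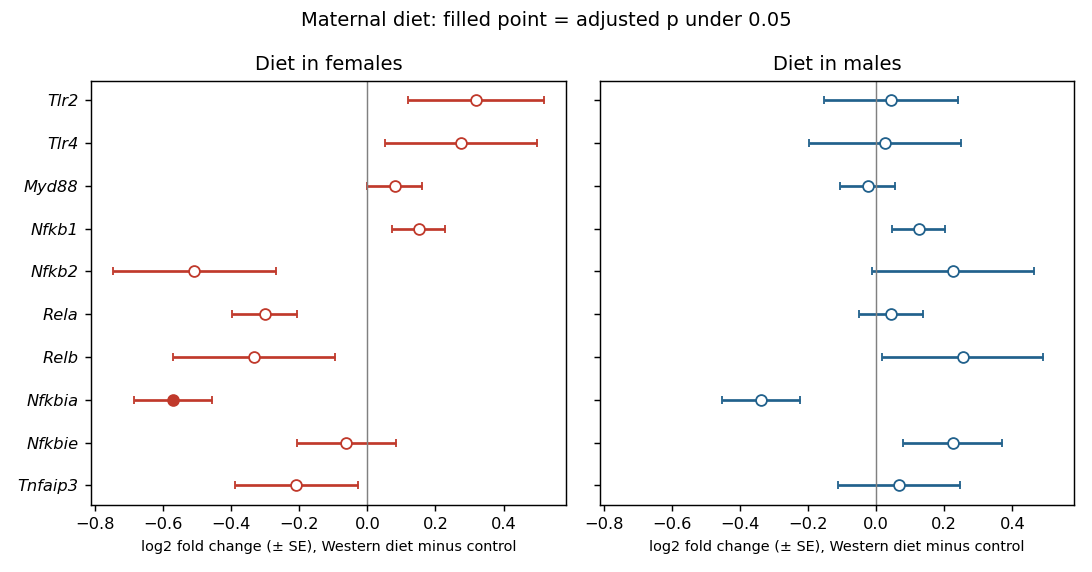
Fitted log2 fold changes of the 10 genes for maternal Western diet minus control, in females (left) and males (right); bars are standard errors, and a filled point marks an adjusted p under 0.05. Nfkbia in females, at -0.57, is the 1 filled point.

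Over the 10 genes the median diet difference was -0.14 in females, against a median of 0.03 over all genes tested, with 4 positive and 6 negative. In males it was 0.06, against 0.02 over all genes, with 8 positive and 2 negative. Nfkb2 and Rela had the largest differences between male and female diet effects relative to their errors, male less female 0.73 ± 0.338 for Nfkb2 and 0.34 ± 0.133 for Rela, with unadjusted p-values of 0.0406 and 0.0164. Neither passed adjustment (0.592 and 0.589, edgeR), and no gene of the 10 did by edgeR or DESeq2. In that comparison edgeR called 0% of all genes, DESeq2 called 4 genes, and 1633 genes had an unadjusted p under 0.05. No gene of the 10 had Western-diet and control ranges that stayed apart over all batches in either sex, a separation that 0.714% of all genes showed downward and 0.469% upward in females, and 0.291% downward and 0.209% upward in males.

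Lists of other pathway and stimulus genes were set beside the 10. In females 1 of 34 tested target genes rose and 2 fell, with a median of -0.09, where 2.20% of all genes tested were called higher and 3.22% lower. Cflar, which encodes the caspase-8 regulator c-FLIP, rose by 0.38 ± 0.09 (adjusted p 0.0126, edgeR), to 68.2 ± 6.17 CPM in Western-diet females against 52.6 ± 6.71 CPM in control females. Tnfaip2, a TNF-induced gene, fell to 37.02 ± 12.1 CPM in Western-diet females against 64.1 ± 20.3 CPM in control females (-0.79 ± 0.145, adjusted p 0.00202, edgeR). Cxcl2, which encodes a neutrophil-attracting chemokine, fell to 9.91 ± 6.10 CPM in Western-diet females against 32.97 ± 41.7 CPM in control females (-1.20 ± 0.347, adjusted p 0.0444, edgeR). The Cxcl2 call was lost when any of 11 single libraries was left out, and control female replicate 1 alone moved it to -0.76 (adjusted p 0.12). Without control female replicates 5 and 6 the calls of Cflar (adjusted p 0.206) and Tnfaip2 (adjusted p 0.056) were lost. Csf2 and Csf3 were too low to be tested.

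Of 18 adaptors and kinases in females, edgeR called none higher and 1 lower, where 2.20% of all genes were called higher and 3.22% lower. That gene was Tab1, which encodes a partner of the kinase TAK1. It measured 55.6 ± 11.7 CPM in Western-diet females against 82.6 ± 16.01 CPM in control females (-0.56 ± 0.142, adjusted p 0.0204, edgeR). DESeq2 called 4, Irak4 higher and Irak2, Tab1 and Ticam1 lower, where it called 835 of 19616 genes higher and 970 lower. Of 28 other NF-kB core genes and regulators edgeR called none higher and 1 lower: Rnf31, the catalytic subunit gene of the linear ubiquitin ligase complex. It measured 23.9 ± 7.32 CPM in Western-diet females against 35.7 ± 2.92 CPM in control females (-0.59 ± 0.171, adjusted p 0.0441, edgeR). DESeq2 called 3 of the 28, Bcl3 higher and Nfkbib and Rnf31 lower. The Tab1 call was lost when any of 3 single libraries was left out (adjusted p up to 0.0674) and the Rnf31 call with any of 10 (up to 0.118). Without control female replicates 5 and 6 both calls were lost, with adjusted p-values of 0.3 for Tab1 and 0.324 for Rnf31. No gene of 17 other receptors and co-receptors was called in females by edgeR or DESeq2, and 2 of them had an unadjusted p under 0.05. In the average over both sexes, Cd36, a scavenger receptor that also acts as a TLR co-receptor, fell by 0.55 (adjusted p 0.0203, edgeR), and Irak4, the kinase that MyD88 recruits, rose by 0.27 (adjusted p 0.0204, edgeR). The Irak4 call was lost when any of 7 single libraries was left out, with adjusted p-values up to 0.0794. That average again called Cflar (0.30), Tnfaip2 (-0.55), Cxcl2 (-0.93) and Tab1 (-0.39).

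Glucocorticoids are known to raise Nfkbia in several cell types, so a list of glucocorticoid-responsive genes was set beside it. In females 1 of 12 rose, Fkbp5 by 0.82 ± 0.194 (adjusted p 0.0132, edgeR), and 1 fell, Mt1 by 0.96 ± 0.2 (adjusted p 0.00586, edgeR). Fkbp5 encodes a chaperone of the glucocorticoid receptor and Mt1 a metallothionein. In the average Fkbp5 (0.51) and Mt1 (-0.74) were called again, with Mt2 at -1.19. Of 18 immediate early genes 1 rose in females, Klf6 by 0.47 (adjusted p 0.0313, edgeR), and 1 fell, Btg2 by 0.69 (adjusted p 0.031, edgeR), and the average added Klf4 at 0.42. The Klf4 call was lost in 14 of 24 single omissions (adjusted p up to 0.0833) and that of Fkbp5 in the average in 7 (up to 0.0645). The Klf6 call was lost when any of 12 single libraries was left out and the Btg2 call with any of 6, and of the 4 genes Mt1 alone was still called without control female replicates 5 and 6 (Fkbp5 adjusted p 0.242, Klf6 0.386, Btg2 0.163, edgeR). In males no gene of these 6 lists was called by edgeR. DESeq2 called Cd36 alone. Of the 34 target genes, 27 had a negative male difference, with a list median of -0.30 against 0.02 over all genes. Of these 34, 8 had an unadjusted p under 0.05, as did 4 of the 18 immediate early genes and 1657 of all 19616 genes.

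For each of the 10 genes but Nfkb1, the labelled batches held more of the variation than the 4 groups of sex and diet. For Rela the shares were close, at 32.2% and 29.6% of the sum of squares. Over all genes tested the medians were 16.2% for batch and 15% for group. Of the 10 genes 8 were called for batch, where 24.2% of all genes were called, and all 8 were highest in batch 1, as were 9.52% of all genes. Nfkbia, Tnfaip3 and Relb were higher in all 8 libraries of batch 1 than in any of the other 16, a separation that 0.464% of all genes showed. Nfkb1 and Myd88 were not called. Batches were balanced over the 4 groups, so the diet comparisons hold each batch equally on both sides.

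Nfkbia and Tnfaip3 differed most. Nfkbia measured 487.4 to 925.2 CPM (median 707.4) in batch 1, 139.8 to 304.7 CPM (median 236.1) in batch 2 and 214.5 to 347.4 CPM (median 278.5) in batch 3. Batch 1 was 2.99-fold above batch 2 and 2.42-fold above batch 3 (adjusted p 1.47e-10, edgeR). Tnfaip3 measured 130.7 to 237.1 CPM (median 173.4) in batch 1, 33.9 to 88.4 CPM (median 59.0) in batch 2 and 45.1 to 89.1 CPM (median 73.3) in batch 3. It was 2.97-fold higher in batch 1 than in batch 2 (adjusted p 2.18e-07, edgeR). Nfkbie had another order, with medians of 37.8 CPM in batch 1, 32.2 CPM in batch 2 and 22.95 CPM in batch 3 (adjusted p 0.000306, edgeR).

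Of the subunits, Relb had medians of 13.9, 7.56 and 6.53 CPM in batches 1, 2 and 3 (adjusted p 0.000361, edgeR). All 8 batch 1 libraries lay at or above 9.18 CPM and all others at or below 9.04 CPM, so the separation of Relb was narrow. Nfkb2 had medians of 45.3, 26.2 and 28.4 CPM in batches 1, 2 and 3 (adjusted p 0.0065, edgeR), with 1 library of batch 1, control male replicate 1, at 13.7 CPM. Rela differed least among the genes called, with medians of 97.1, 79.5 and 86.8 CPM and log2 differences of 0.29 between batches 1 and 2 and 0.19 between batches 1 and 3 (adjusted p 0.0286, edgeR). Its call was lost when any of 14 single libraries was left out, with adjusted p-values from 0.00407 to 0.0809 over the 24 omissions. Nfkb1 stayed within medians of 170.6, 159.4 and 158.0 CPM (adjusted p 0.356, edgeR).

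The receptors also stood highest in batch 1. Tlr2 had medians of 15.3, 11 and 9.43 CPM in batches 1, 2 and 3 (adjusted p 0.009, edgeR), and Tlr4 of 13.4, 9.87 and 6.52 CPM (adjusted p 0.0214, edgeR). The Tlr4 call was lost without control female replicate 1 (adjusted p 0.0609), control female replicate 2 (0.0533), control male replicate 5 (0.0562) or the control female pair of batch 3 (0.1). Myd88 had another order, with its highest median of 61.0 CPM in batch 3, against 54.3 CPM in batch 1 and 52.4 CPM in batch 2 (adjusted p 0.0596, edgeR); the call was made when any of 7 single libraries was left out. With batch 1 left out 1 of the 10 genes, Nfkbie, was called between batches 2 and 3, where 14.3% of all genes were called. With batch 3 left out 5 were called between batches 1 and 2, Tlr2, Nfkb2, Relb, Nfkbia and Tnfaip3, where 6.04% of all genes were called. Without control female replicates 5 and 6 Rela (adjusted p 0.0573) was lost along with Tlr4, and 6 of the 10 were called.

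**Figure D3:**
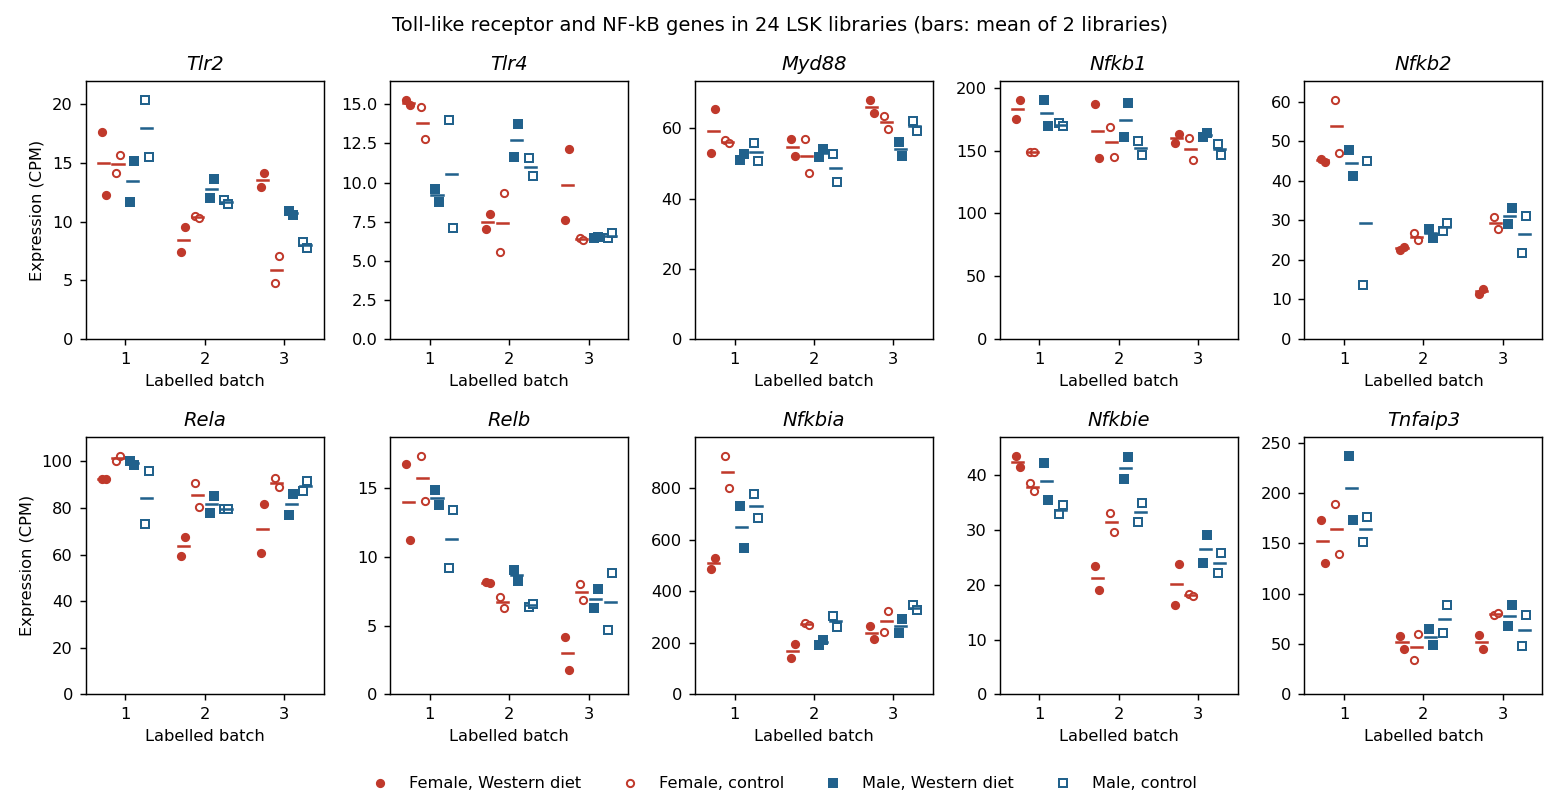
Expression in CPM of the 10 genes in the 24 libraries, by labelled batch, with females of Western-diet dams, control females, males of Western-diet dams and control males from left to right; bars are means of 2 libraries, and each axis starts at 0. Nfkbia, Tnfaip3 and Relb stand above the other batches in all 8 libraries of batch 1, whereas Nfkb1 and Myd88 do not.

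Batch held 84.1% of the sum of squares of log2 CPM of Nfkbia and 81.9% of that of Tnfaip3, against a median of 16.2% over all genes tested. For Nfkbie it held 59.7%, for Relb 59.5% and for Tlr2 44.5%. At the other end Nfkb1 had 15.8% in batch and 31.1% between the groups of sex and diet. Nfkb1 was also the steadiest gene of the set: its SD over 24 libraries was 0.13 on the log2 scale, and 1.22% of all genes tested had a smaller one. Myd88 followed at 0.15, whereas Tnfaip3 reached 0.79. For Nfkbia the groups held 10.7%, against a median of 15% over all genes tested, and 5.16% was left over, against a median of 64.5%. Little of its variation was thus left over because the batch share was large.

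**Figure D4:**
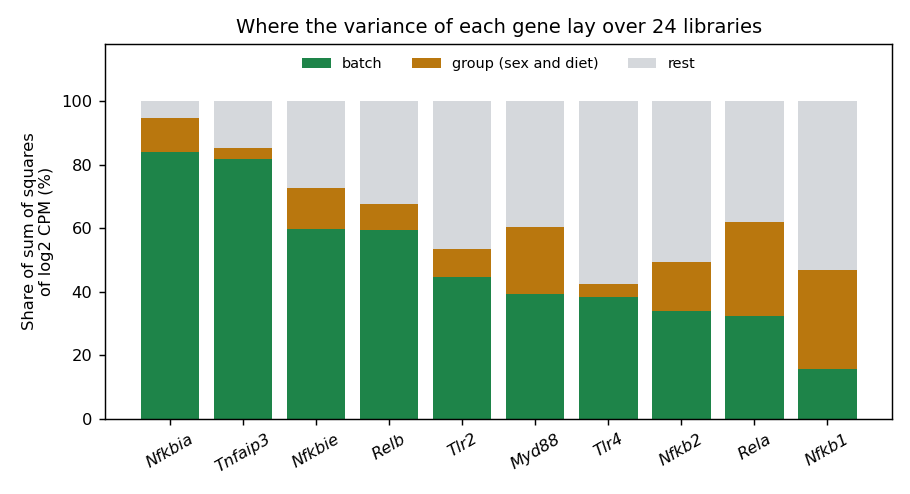
Share of the sum of squares of log2 CPM over 24 libraries that lay between batches (green), between the 4 groups of sex and diet (brown) and within them (grey), in percent, for each of the 10 genes in order of the batch share. The batch share runs from 84.1% for Nfkbia to 15.8% for Nfkb1.

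Known NF-kB targets and immediate early genes were highest in batch 1 as well. Of 34 target genes 25 (73.5%) were called for batch, 22 of them highest in batch 1, against 24.2% of all genes called and 9.52% called and highest in batch 1, with a median log2 difference of 0.94 between batches 1 and 2, against 0.01 over all genes. Of 18 immediate early genes 14 were called, all highest in batch 1, with a median of 0.97. Cd69, an early activation antigen and the most abundant target, averaged 637.5 ± 255.7 CPM in batch 1, 285.8 ± 120.5 CPM in batch 2 and 203.3 ± 71.9 CPM in batch 3 (SD, n = 8 each). The next targets by level were not called or had another order. Tapbp, which encodes the MHC class I chaperone tapasin, averaged 320.2 ± 33.2, 297.7 ± 30.7 and 278.9 ± 45.7 CPM in batches 1, 2 and 3, the order of Cd69, and was not called (adjusted p 0.241, edgeR). Sod2, the mitochondrial superoxide dismutase gene, averaged 190.1 ± 22.8, 190.6 ± 21.8 and 237.6 ± 25.3 CPM and was thus highest in batch 3.

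Other parts of the pathway had smaller medians, and their counts stand beside the same 24.2% and 9.52% of all genes. Of 18 adaptors and kinases 2 (11.1%) were called for batch and 1 of these was highest in batch 1, with a median log2 difference of 0.03 between batches 1 and 2. Of 28 other NF-kB core genes and regulators 9 (32.1%) were called, 5 highest in batch 1, with a median of 0.11. Of 17 other receptors and co-receptors 9 (52.9%) were called, 7 highest in batch 1, with a median of 0.58. Of 12 glucocorticoid-responsive genes 5 (41.7%) were called, 3 highest in batch 1.

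**Figure D5:**
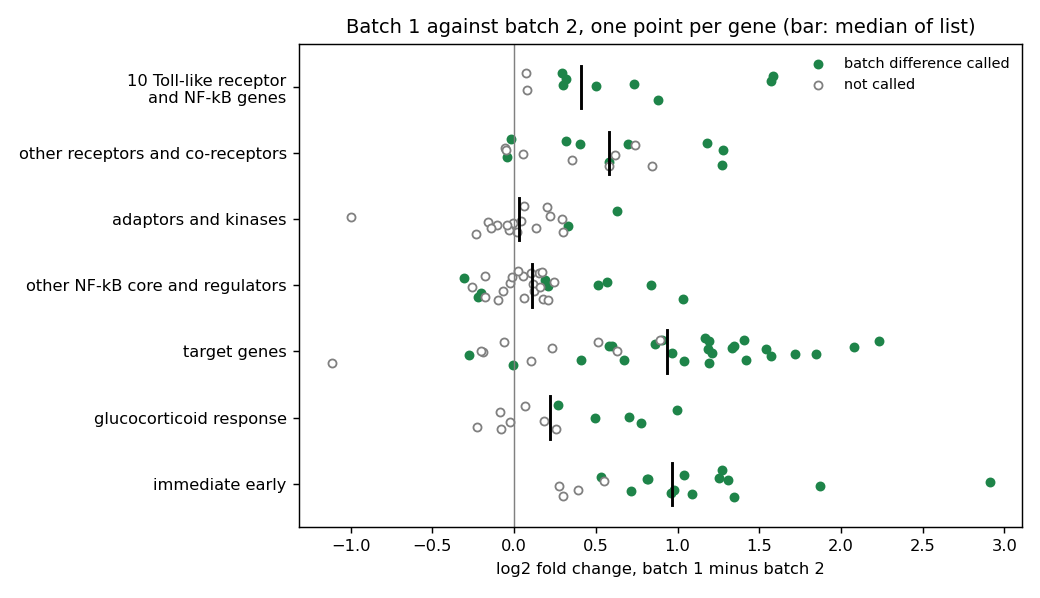
Log2 fold change of batch 1 minus batch 2 for each gene of the 10 and of the 6 other lists; green points are genes called for batch at an adjusted p under 0.05, open points are not called, and black bars are medians. The target genes (median 0.94) and the immediate early genes (median 0.97) lie to the right of 0, and the adaptors and kinases (median 0.03) lie around it.

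Markers of other cells moved with batch 1 too. Their counts stand beside the same 24.2% of all genes called and 9.52% called and highest in batch 1. Of 15 macrophage and monocyte markers 10 were called for batch, all of them highest in batch 1, and the 15 summed to medians of 1526, 700.5 and 735.6 CPM in batches 1, 2 and 3, with ranges of 973.9 to 2089, 511.5 to 879.5 and 512.5 to 1236 CPM. Vcam1, the most abundant of them, is also on the target list, and Flt3 is on both the LSK and the dendritic list. The 10 dendritic markers summed to medians of 1952, 1127 and 1037 CPM and the 10 B and plasma cell markers to 1175, 919.3 and 749.3 CPM in batches 1, 2 and 3. Of the B and plasma cell markers 8 were called, all highest in batch 1. Of 12 T and NK cell markers 6 were called, all highest in batch 1 by their fitted levels, and their sums had medians of 382.9, 396.4 and 341.2 CPM in batches 1, 2 and 3. Of 10 mature red cell markers 8 were called, 5 highest in batch 1 and 3 in batch 3, with sums at medians of 3882, 2542 and 2525 CPM. Of 11 neutrophil markers 5 were called, 4 highest in batch 1, with sums at medians of 177.4, 190.8 and 132.4 CPM. Of the 11 LSK markers 8 were called, 3 highest in batch 1 and 5 in batch 2. None of the 8 mast cell or 9 stromal markers was called by edgeR, where 1 and 2 of them had an unadjusted p under 0.05. The part of these markers in the batch differences of the 10 genes was not tested.

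Because NF-kB is known to act on several of its own genes, the promoters of the 10 were searched for the NF-kB consensus, the kB site, a motif of 10 letters read on both strands. RefSeq promoters on build GRCm38.p6, from 250 bases before a transcript's start to 50 after it, were at hand for 7 of the 10 genes and gave 10 promoters. Tlr4, Nfkb1 and Relb were not among them. Of these 10 promoters 7 held at least 1 match, as did 8.46% of all 32851 promoters. They belong to 5 of the 7 genes, Tlr2, Nfkb2, Nfkbia, Nfkbie and Tnfaip3, and the promoters of Myd88 and Rela held none. Nfkb2 gave 3 of the 7 promoters with a match, and 2 of these overlap and share 1 match. The promoters are thus not independent of each other. Nfkbia (chr12:55492598-55492897, minus strand) had 1 match that began 29 bases before the start. The first Tnfaip3 promoter (chr10:19015361-19015660, minus strand) had 2, at 125 and 12 bases before it, whereas the other Tnfaip3 promoter (chr10:19011914-19012213, minus strand) had 0. The first Nfkb2 promoter (chr19:46304487-46304786, plus strand) had 3, of which those at 39 and 38 bases before the start overlap and the third lies at 11. Tlr2 (chr3:83841559-83841858, minus strand) also had 3, with an overlapping pair at 173 and 172 bases and the third at 8; 0.186% of all promoters had 3 or more. The promoters of these 4 genes are printed here beside that of Myd88 (chr9:119339969-119340268, minus strand), which has none. They were chosen with their batch calls known, and those of Rela and Nfkbie, also called for batch, are not printed. Whether matches go with batch differences was not tested. Letters run 5′ to 3′ on the gene's strand, and capitals mark the kB matches.
Nfkbia: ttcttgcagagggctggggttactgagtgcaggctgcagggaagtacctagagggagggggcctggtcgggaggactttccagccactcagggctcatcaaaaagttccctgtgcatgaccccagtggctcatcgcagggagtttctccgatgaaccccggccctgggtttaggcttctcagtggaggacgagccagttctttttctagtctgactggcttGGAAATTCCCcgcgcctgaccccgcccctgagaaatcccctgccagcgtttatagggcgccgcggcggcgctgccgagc
Tnfaip3: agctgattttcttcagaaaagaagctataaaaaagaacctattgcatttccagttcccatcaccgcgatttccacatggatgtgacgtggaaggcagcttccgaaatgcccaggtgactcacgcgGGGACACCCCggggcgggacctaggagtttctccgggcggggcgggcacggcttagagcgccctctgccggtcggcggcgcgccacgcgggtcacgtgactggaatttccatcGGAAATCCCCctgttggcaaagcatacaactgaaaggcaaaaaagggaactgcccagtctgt
Nfkb2: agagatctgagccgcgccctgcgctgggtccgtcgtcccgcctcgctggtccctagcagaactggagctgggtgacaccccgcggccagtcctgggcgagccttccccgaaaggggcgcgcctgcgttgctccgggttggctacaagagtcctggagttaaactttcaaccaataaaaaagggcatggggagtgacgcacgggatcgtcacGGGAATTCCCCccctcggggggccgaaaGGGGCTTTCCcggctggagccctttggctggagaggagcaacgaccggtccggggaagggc
Tlr2: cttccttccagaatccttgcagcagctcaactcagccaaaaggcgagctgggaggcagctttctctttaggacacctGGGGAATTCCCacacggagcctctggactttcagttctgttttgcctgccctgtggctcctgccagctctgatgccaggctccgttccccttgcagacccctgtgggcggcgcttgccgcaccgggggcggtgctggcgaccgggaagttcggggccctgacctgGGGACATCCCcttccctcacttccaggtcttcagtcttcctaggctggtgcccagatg
Myd88: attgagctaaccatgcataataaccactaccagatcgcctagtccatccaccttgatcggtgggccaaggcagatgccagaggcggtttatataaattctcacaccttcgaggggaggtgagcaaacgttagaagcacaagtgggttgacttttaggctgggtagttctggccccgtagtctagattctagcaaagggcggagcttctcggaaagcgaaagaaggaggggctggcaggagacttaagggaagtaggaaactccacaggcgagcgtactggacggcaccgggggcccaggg

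A match is a description of letters and shows neither binding nor a cause. Tlr2, Nfkb2, Nfkbia, Nfkbie and Tnfaip3, each with a match, were called for batch, as were 24.2% of all genes. Of the genes without a match in the window, Myd88 was not called and Rela was called with a small difference. Nfkbia, with 1 match, had a larger difference between batches 1 and 2 than Nfkb2 or Tlr2 with 3. These values are given as a description.

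Sex had no called effect on the 10 genes. Averaged over both diets, none of the 10 differed between males and females by edgeR or DESeq2, where edgeR called 0.184% of all genes, 0.148% higher in males and 0.0357% lower. Nfkbie had the smallest p, with a male minus female difference of 0.25 ± 0.103 (unadjusted p 0.0253, adjusted p 0.327, edgeR), and Myd88 was the only other one with an unadjusted p under 0.05 (-0.12 ± 0.057, adjusted p 0.393). Of the other NF-kB core genes, 1 of 28 was called higher in males: Rel, the c-Rel subunit gene, by 0.45 ± 0.091 (adjusted p 0.0318, edgeR), a call that was lost when any of 15 single libraries was left out. Rel averaged 86.6 ± 39.0 CPM in Western-diet males and 71.6 ± 43.3 CPM in Western-diet females, and 88.6 ± 38.2 CPM in control males and 66.7 ± 43.7 CPM in control females. Of 18 immediate early genes 2 were called higher in males, Nr4a1 by 0.85 ± 0.151 (adjusted p 0.0119, edgeR) and Fosb by 0.63 ± 0.116 (adjusted p 0.0135, edgeR). Without control female replicates 5 and 6 the calls of Rel (adjusted p 0.222), Nr4a1 (0.106) and Fosb (0.0507) were lost. None of the 34 target genes was called by edgeR, but 28 were positive with a median of 0.39, against 0.01 over all genes. Of the 34, 18 had an unadjusted p under 0.05 in edgeR. The share of all genes with such a p or a positive sign is not given here. DESeq2 called 4 higher and 1 lower in males, where it called 145 of 19616 genes higher and 112 lower.

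With group and batch means removed, the 10 genes did not vary as a block between libraries. Of 45 pairs 5 passed a permutation test on Pearson's r over 24 libraries, all at an adjusted p of 0.0335, and the median r over the 45 was -0.05. The test shuffled the 24 values freely, although the removal of means left fewer independent values than that. Its p-values, for r and rho alike, are therefore too small, and the pairs are given as a description. Nfkb2 and Relb, whose proteins form a dimer, varied together (r 0.656, Spearman's rho 0.705 with an adjusted permutation p of 0.00585). Their r was 0.805, 0.504 and 0.757 within batches 1, 2 and 3 and 0.782 without the 2 libraries farthest from the median of Nfkb2. Rela and Nfkbie varied together as well (r 0.614, rho 0.707, unadjusted permutation p 0.00108), with r of 0.586, 0.541 and 0.763 within the batches and 0.595 without the 2 farthest libraries. The relation of Nfkb2 with Rela (r 0.612) rested on 2 libraries, since it was 0.09 without them and its rho was 0.347; within batches 1, 2 and 3 r was 0.931, -0.115 and 0.4. Tlr2 ran against Relb (r -0.587, rho -0.563) and Myd88 against Tnfaip3 (r -0.57, rho -0.519), at unadjusted permutation p-values of 0.0024 and 0.00372. Within batches 1, 2 and 3 the r of Tlr2 with Relb was -0.0509, -0.852 and -0.716, so it did not hold in batch 1, and that of Myd88 with Tnfaip3 was -0.595, -0.672 and -0.387. Without the 2 farthest libraries r was -0.536 for Tlr2 with Relb and -0.483 for Myd88 with Tnfaip3, and only the pair of Nfkb2 and Relb still passed adjustment over the 45. With group means alone removed, 21 pairs passed, all positive, with a median r of 0.45.

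Among 19615 other genes, the 3 whose log2 CPM followed Nfkbia most closely over the 24 libraries, with group and batch means removed, were Gm47567 (r 0.77, mean 0.585 CPM), Bcl6 (r 0.766, mean 2.56 CPM) and Ier3 (r 0.745, mean 100.7 CPM). Gm47567 lies on chromosome 12, as Nfkbia does, whereas Bcl6 lies on chromosome 16 and Ier3 on chromosome 17. Bcl6 encodes a transcriptional repressor and Ier3 is on the list of target genes. Ier3 averaged 176.2 ± 47.8 CPM in batch 1, 76.9 ± 25.1 CPM in batch 2 and 49.0 ± 16.6 CPM in batch 3 (SD, n = 8 each). These r values were picked as the highest of all genes and are given as a description.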

How the data were processed

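Counts per gene were deposited by the authors, 1 file per library, as raw counts. FastQC, cutadapt, STAR, HTSeq and build GRCm39 are named in the submitters' processing notes, with DESeq2; versions and strand setting were not given in the sources used here. Per the labels' protocols, RNA with an integrity number above a set minimum went into a low-input polyA kit. Of the gene identifiers 52081 of 55414 matched a symbol in GENCODE M21, which is of build GRCm38 and gave names, exon lengths and chromosomes. Lines of the deposited count files that name no gene held 31.0 to 39.3% of a library (median 34.8%) and were left out. No pair of libraries agreed within sampling noise (lowest chi-square per degree of freedom 17.2).

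Genes were filtered with filterByExpr (19616 kept), scaled by TMM (factors 0.932 to 1.05) and fitted in edgeR 4.0.16 (R 4.3.3; robust quasi-likelihood, group and batch terms, all 24 libraries, common biological coefficient of variation 0.261). P-values are two-sided, adjusted by Benjamini-Hochberg over all genes within a comparison and called under 0.05. CPM use TMM-scaled library sizes and log2 CPM a prior count of 2. Standard errors are the log2 fold change divided by the root of F. Correlations used 100000 permutations. Alternatives were DESeq2 1.42.0, RLE size factors, no filter, no batch term, a replicate block, a single sex, and leaving out a batch, a pair or a library. The fit was tested on simulated data.

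The 10 genes and the lists were chosen with earlier results of these data known. Text names all 10 genes, each list's called genes up to 4 per direction in a diet or sex comparison, the 3 most abundant targets, the 3 genes closest to a called gene, and marker genes by level. Kit, Ly6a, Csf2, Csf3, genes called by DESeq2 alone and genes named for falling out of a pattern were chosen after their values were seen. The 15 lists held 224 symbols, of which 223 matched. The replicate numbers of the groups were not taken as pairs: with group and batch means removed, same-numbered libraries correlated at -0.432 to 0.166.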

Additional observations from a re-analysis of the deposited data

Results flagged for a closer look

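Single libraries that lay far from the other 7 of their batch were found for 4 of the 10 genes among 70 sets of libraries examined (4 groups and 3 batches for each gene); chance marks about 1 in 20 such sets. Female Western-diet replicate 6 had 12.16 CPM of Tlr4 in batch 3, above the others. Female Western-diet replicate 2 had 65.45 CPM of Myd88 in batch 1, above the others. Male control replicate 1 was lowest in batch 1 for 2 genes, with 13.69 CPM of Nfkb2 and 73.16 CPM of Rela.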

How the results depend on the processing

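Nfkbia kept its direction in all 34 alternatives in females, all 34 in males and all 33 in the average over both sexes. It was called in 32 of 34 in females, at -0.63 with no batch term and -0.52 without batch 2 where it was not, and in 32 of 33 in the average, at -0.45 with no batch term. Leaving out single libraries moved it between -0.65 and -0.51 in females and never ended the call. No paired reading was used: with a replicate block Nfkbia was -0.57 in females, the block called 1 gene in males and it changed no call among the 10 genes, and 0 of 24 libraries correlated best with their own number once group and batch means were removed. The causes of the changes given here were not tested.

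Of the 10 genes, those called in females numbered 2 with no filter on low counts and 2 in DESeq2, 0 with no batch term, 3 without batch 1 and 0 without batch 2, and 1 to 2 when a single library was left out. In the average 0 were called with no batch term. For batch, 1 was called without batch 1 and 5 without batch 3.

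Over all genes, calls in females numbered 2023 with no filter, 1805 in DESeq2, 404 with no batch term, 358 with female libraries alone, 1839 without batch 1, 297 without batch 2, 146 without batch 3 and 154 without control female replicates 5 and 6, with 504 to 1386 over single omissions. In males they numbered 380 with no filter, 99 in DESeq2, 0 with no batch term, 1 with male libraries alone, 1 without batch 1, 1 without batch 2 and 0 without batch 3, with 1 to 13 over single omissions. In the average they numbered 1693 with no filter, 1784 in DESeq2, 466 with no batch term, 556 without batch 2, 143 without batch 3 and 447 without that control pair, with 716 to 1464 over single omissions. The difference of diet effects gave 572 calls with no filter and 4 in DESeq2. Sex gave 967 with no filter, 257 in DESeq2, 12 with no batch term, 124 without batch 1, 23 without batch 3 and 19 without the pair, with 22 to 66 over single omissions. Batch gave 2805 without batch 1, 1200 without batch 3 and 2946 without the pair. Among gene pairs 21 passed with group means alone removed and 1 without the 2 farthest libraries.

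Log2 differences that were not called changed sign as follows. In females, without batch 3, Tlr2 was -0.13, Relb 0.045 and Tnfaip3 0.016, and Nfkbie was 0.15 without batch 2. In males Tlr2 was -0.025 with no batch term, -0.029 without batch 2 and -0.13 without batch 3, Tlr4 was -0.0079 with male libraries alone and -0.13 without batch 2, Myd88 was 0.041 without batch 3, Rela was -0.053 without batch 1, and Tnfaip3 was -0.068 without batch 1 and -0.044 without batch 3. In the average Tlr2 was -0.13, Nfkb2 0.0065 and Relb 0.21 without batch 3, Myd88 was -0.024 without batch 2, Nfkbie was -0.0098 without batch 1, Relb was 0.019 with no batch term, and without the pair Relb was 0.015 and Tnfaip3 0.021. Over single omissions the ranges that crossed 0 were -0.18 to 0.041 for Nfkbie in females, -0.029 to 0.075 for Rela, -0.031 to 0.13 for Tlr2, -0.13 to 0.11 for Tlr4 and -0.050 to 0.20 for Tnfaip3 in males, and -0.014 to 0.036 for Myd88 and -0.13 to 0.070 for Relb in the average. Tlr2, Tlr4 and Relb had the fewest counts of the 10 genes, down to 191, 258 and 74 per library.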
